A study of Mus musculus with 6 samples.

Results

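The genes of de novo lipogenesis were described in heart RNA of VAChT KD and WT mice. The 10 genes were chosen by name and function: Acly, Acaca, Acacb, Fasn, Scd1, Scd2, Scd4, Elovl6, Srebf1 and Me1. All 10 were measured, among the 19938 genes that have a probe set listed under 1 symbol on the array, and together they have 12 probe sets, since Acaca and Me1 have 2 each. RNA was applied to 6 Mouse Gene 1.0 ST arrays, 3 from VAChT KD mice and 3 from WT mice, each hybridised with RNA pooled from 2 samples. The mice were males of 3 months of age and received no treatment. VAChT KD mice are homozygous for a knockdown allele of the transporter that fills synaptic vesicles with acetylcholine, and the knockdown is not limited to the heart. The strain label is C57BL/6, whereas the methods describe a mixed background after 3 backcross generations, and the labels name the heart where the methods name ventricles. The study looked at Acly, acetyl-CoA carboxylase and Fasn transcripts separately because lipid synthesis genes had been linked to heart failure, and the question here is what the arrays show for the same pathway.

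De novo lipogenesis turns surplus carbohydrate into fatty acids in the cytosol. Citrate that leaves the mitochondrion is cleaved to acetyl-CoA, which is carboxylated to malonyl-CoA and condensed stepwise to palmitate, and elongases and desaturases then lengthen and desaturate the product. The pathway is most active in liver and adipose tissue and is driven there by the transcription factors SREBP-1c and ChREBP. The heart burns far more fatty acid than it makes, and malonyl-CoA is known in cardiac muscle mainly as an inhibitor of fatty acid entry into mitochondria.

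The upstream sequences of 4 of the genes are given because these genes stand for the patterns described below: Acly and Fasn encode enzymes of the central route, and Acacb and Scd4 form the pair with the most similar profiles over the arrays. RefSeq promoters (GRCm38.p6) were matched for 8 of the 10 genes, and Scd1 and Scd2 were not matched. Each line holds the 250 bases before a start site, 5′ to 3′ on the strand of the gene, with capitals for a match on either strand to CCAAT (the box bound by NF-Y) or GGGCGG (the GC box bound by Sp1). The windows of Fasn and Acacb lie inside the annotated span of the gene, which has further starts upstream.
Acly (chr11:100528001-100528250, minus strand): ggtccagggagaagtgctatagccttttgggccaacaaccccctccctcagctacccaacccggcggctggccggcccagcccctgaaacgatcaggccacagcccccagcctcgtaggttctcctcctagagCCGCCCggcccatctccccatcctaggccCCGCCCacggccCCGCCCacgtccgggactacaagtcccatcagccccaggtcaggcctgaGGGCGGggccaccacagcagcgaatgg
Fasn (chr11:120824548-120824797, minus strand): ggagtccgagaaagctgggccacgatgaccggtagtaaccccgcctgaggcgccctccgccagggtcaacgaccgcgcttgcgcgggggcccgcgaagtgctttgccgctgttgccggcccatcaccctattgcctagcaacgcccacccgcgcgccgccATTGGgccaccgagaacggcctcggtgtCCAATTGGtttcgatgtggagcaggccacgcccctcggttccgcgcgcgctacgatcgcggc
Acacb (chr5:114165268-114165517, plus strand): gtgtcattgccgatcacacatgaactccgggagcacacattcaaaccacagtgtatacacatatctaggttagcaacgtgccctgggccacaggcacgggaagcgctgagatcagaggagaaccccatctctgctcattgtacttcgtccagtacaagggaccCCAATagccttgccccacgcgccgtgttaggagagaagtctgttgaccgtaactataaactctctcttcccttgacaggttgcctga
Scd4 (chr19:44333076-44333325, plus strand): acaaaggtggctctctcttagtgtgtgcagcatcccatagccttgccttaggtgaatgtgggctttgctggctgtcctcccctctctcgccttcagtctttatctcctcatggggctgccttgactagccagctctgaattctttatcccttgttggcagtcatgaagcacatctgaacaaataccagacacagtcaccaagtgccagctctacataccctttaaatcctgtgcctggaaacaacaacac
The Acly window held 4 GC boxes, that of Fasn 3 CCAAT boxes of which 2 overlap, that of Acacb 1 CCAAT box and that of Scd4 none of either. Among 32851 promoter windows of this length, CCAAT was present in 33.8% and GGGCGG in 32.7%. The sterol regulatory element TCACNCCAC, present in 1.05% of windows, and the E-box CACGTG, present in 6.02%, were not matched in any of the 11 windows of the 8 genes. These matches describe letters in a window and are no evidence of binding.

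The values are log2 signals, as deposited after robust multi-array averaging (RMA). Slc18a3, which encodes VAChT, read 7.24, 6.77 and 7.58 on the arrays labelled VAChT KD 1, 2 and 3, against 7.31, 7.42 and 7.11 on the arrays labelled WT 1, 2 and 3, with overlapping groups for the targeted gene (difference -0.08, standard error 0.20, limma adjusted p = 0.873). Ogdhl, an oxoglutarate dehydrogenase-like gene, read 7.06, 10.17 and 7.09 on the arrays labelled VAChT KD, against 9.60, 7.21 and 10.33 on those labelled WT. For Ogdhl, the 2 arrays numbered 2 thus lay with the other label. The arrays alone do not settle whether these 2 carry the right labels. The study's own gene list gives Ogdhl a much larger fall in VAChT KD than the arrays show under the labels. With the labels of the 2 arrays numbered 2 exchanged, Ogdhl would read 7.06, 7.21 and 7.09 in VAChT KD. It would then read 9.60, 10.17 and 10.33 in WT. Whether the study's list was made with exchanged labels was not tested. Every direction and every statement of overlap below rests on the labels as given. Differences without both arrays numbered 2 are given beside the lipogenesis genes and beside surrounding genes whose difference turned or moved by over 1.5 times. Leaving both out does not show what exchanging their labels would give. The array labelled VAChT KD 1 stood apart in cardiomyocyte markers, with a mean log2 signal of 13.20 over 6 genes such as Myh6 and Tnnt2, against 13.95 and 13.94 on VAChT KD 2 and 3 and 13.87 to 13.89 on the WT arrays. Myl2 and Ryr2 were lower there by less, at 13.21 against 13.41 to 13.60 and 12.37 against 12.43 to 12.61. The mean of fibroblast markers was also lowest on VAChT KD 1, at 10.09, whereas those of endothelium and macrophage markers were lowest on WT 1. All 6 cardiomyocyte markers were above background on average, which was taken as the 95th percentile of 1023 olfactory receptor probe sets, a log2 signal of 6.51. Correlations between arrays ran from 0.982 to 0.994 over all probe sets.

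None of the lipogenesis genes differed between the labelled groups by the thresholds of the study's methods, a fold of 1.3 at an unadjusted p of 0.05. In limma, which tests each probe set with an error that borrows from all probe sets, 0 of the 12 probe sets passed both thresholds, where 3.79% of all 35556 probe sets did (2.12% higher and 1.67% lower in VAChT KD). At an unadjusted p of 0.05 alone the count was also 0 of 12, against 11.7% of all probe sets, and at an adjusted p of 0.05 (Benjamini-Hochberg over all probe sets) it was 0 of 12, against 0.00281%. The methods' own test without moderation also called 0 of the 12, and it called 1.65% of all probe sets. The lowest unadjusted p from limma among the 12 was 0.112, with an adjusted p of 0.488, at the dimmer probe set of Acaca. The mean was higher in VAChT KD for 6 of the 10 genes and lower for 4, and it was higher for 45.8% of all probe sets. Their median log2 difference was 0.020, against -0.018 over all probe sets, and without both arrays numbered 2 it was -0.050. At the brightest probe set of each gene, the 95% interval of the difference lay within 1.3-fold in either direction in 5 genes (Acly, Acaca, Acacb, Srebf1 and Me1). In the other 5 it reached past 1.3-fold, and at the dimmer probe set of Acaca it reached 1.56-fold. All p-values rest on the variation among 3 pools a group, and 0.1 is the smallest two-sided p that an exact permutation of 3 arrays against 3 can give.

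**Figure D1:**
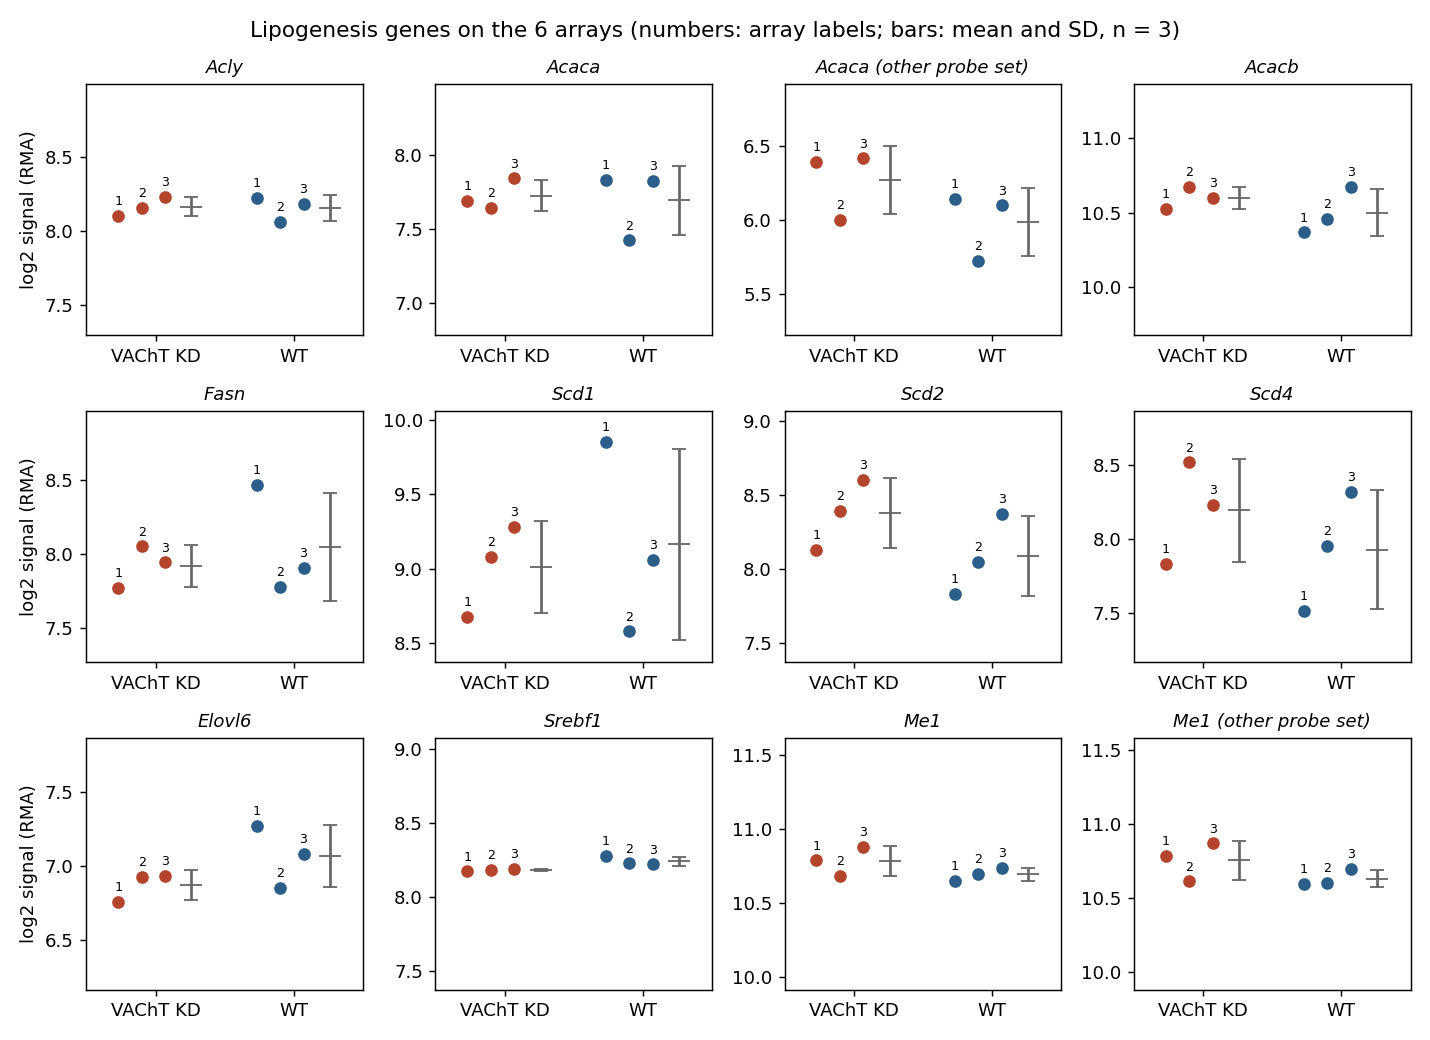
Log2 signal (RMA, vertical axes, all spanning the same range) of the 12 probe sets of the 10 lipogenesis genes on each array, with VAChT KD left and WT right, the array number beside each point and the mean and SD of the 3 arrays to the right of the points. Scd1 and Fasn are highest on the array labelled WT 1, at 9.86 and 8.46, and Scd2 and Scd4 lowest there, at 7.83 and 7.52.

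Acly encodes ATP citrate lyase, which cleaves cytosolic citrate to acetyl-CoA and oxaloacetate and so supplies the carbon of the pathway. It read 8.10, 8.16 and 8.23 on the VAChT KD arrays, against 8.23, 8.06 and 8.18 on the WT arrays. The 2 groups covered nearly the same range, and Acly spanned only 0.17 over the 6 arrays. Its signal averaged 8.17 ± 0.06 in VAChT KD and 8.16 ± 0.09 in WT (SD, n = 3 arrays each). The difference was 0.0092 (limma standard error 0.083, adjusted p = 0.969), and the 95% interval corresponds to 0.879-fold to 1.15-fold. Without both arrays numbered 2 the difference was -0.036.

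Me1 encodes the cytosolic malic enzyme, which makes NADPH for the reductive steps. Its brighter probe set read 10.79, 10.68 and 10.88 on the VAChT KD arrays, against 10.65, 10.70 and 10.74 on the WT arrays. VAChT KD 1 and 3 lay above all WT arrays, and VAChT KD 2 lay within their range. The difference was 0.09 (standard error 0.08, limma adjusted p = 0.652) there and 0.12 (standard error 0.09, limma adjusted p = 0.575) at the other probe set. Without both arrays numbered 2 these differences were 0.14 and 0.18.

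Acaca and Acacb encode the acetyl-CoA carboxylases that make malonyl-CoA, the cytosolic isoform for synthesis and the isoform at the mitochondrial surface that restrains fatty acid oxidation. Acaca read 7.69, 7.64 and 7.84 on the VAChT KD arrays at its brighter probe set, against 7.84, 7.43 and 7.83 on the WT arrays. At its dimmer probe set, whose mean of 6.13 was below the background limit of 6.51, it read 6.39, 6.00 and 6.42 on the VAChT KD arrays, against 6.15, 5.73 and 6.10 on the WT arrays. In both probe sets WT 2 was the lowest of the 6 arrays, and VAChT KD 2 was the lowest of its group. The difference was 0.03 (standard error 0.13, limma adjusted p = 0.929) at the brighter and 0.28 (standard error 0.16, limma adjusted p = 0.488) at the dimmer probe set. Without both arrays numbered 2 these were -0.063 and 0.28. The dimmer probe set was past both thresholds without VAChT KD 2 alone, at 0.41 (unadjusted p = 0.0270 in limma).

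Acacb read 10.53, 10.67 and 10.60 on the VAChT KD arrays, against 10.37, 10.46 and 10.68 on the WT arrays. The groups overlapped through WT 3, the highest array of the 6. The difference was 0.10 (standard error 0.10, limma adjusted p = 0.679), with an interval of 0.908-fold to 1.26-fold. It was 0.041 without both arrays numbered 2 and 0.032 without WT 1. Exchanging the labels of the arrays numbered 2 would turn its sign.

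Fasn encodes fatty acid synthase, the multifunctional enzyme that builds palmitate. It read 7.77, 8.05 and 7.94 on the VAChT KD arrays, against 8.46, 7.77 and 7.90 on the WT arrays. Only WT 1 lay outside the range of the VAChT KD arrays, and it lay above it. Fasn averaged 7.92 ± 0.14 in VAChT KD and 8.05 ± 0.37 in WT (SD, n = 3 arrays each). The difference was -0.13 (limma standard error 0.18, adjusted p = 0.768), with an interval of 0.683-fold to 1.23-fold. Without WT 1 the difference was 0.080, and without both arrays numbered 2 it was -0.33.

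Elovl6 encodes the elongase that lengthens palmitate to stearate. It read 6.76, 6.92 and 6.93 on the VAChT KD arrays, against 7.27, 6.85 and 7.08 on the WT arrays. WT 1 and WT 3 were above all VAChT KD arrays, and WT 2 was among them. The difference was -0.20 (standard error 0.12, limma adjusted p = 0.520), with an interval of 0.717-fold to 1.06-fold. It was -0.094 without WT 1, -0.30 without WT 2 (unadjusted p = 0.0317 in limma, under 1.3-fold) and -0.33 without both arrays numbered 2.

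The stearoyl-CoA desaturases place the first double bond in stearate and palmitate. Of the mouse genes, all on chromosome 19 in RefSeq, Scd1 is the main form of liver and adipose tissue, Scd2 is prominent in brain, and Scd4 is known chiefly from heart. Scd1 had the widest spread of the 10 genes. It read 8.67, 9.08 and 9.28 on the VAChT KD arrays, against 9.86, 8.57 and 9.06 on the WT arrays. The highest and the lowest of the 6 values were both on WT arrays, 1.28 apart on the log2 scale, and the VAChT KD values lay between them. The difference was -0.15 (standard error 0.31, limma adjusted p = 0.846), and its interval of 0.541-fold to 1.5-fold was the widest of the 10. The difference was 0.19 without WT 1, 0.018 without VAChT KD 1, and -0.48 without both arrays numbered 2.

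Scd2 read 8.13, 8.39 and 8.60 on the VAChT KD arrays, against 7.83, 8.05 and 8.37 on the WT arrays. VAChT KD 2 and 3 were above all WT arrays, and VAChT KD 1 was within their range. The difference of 0.29 (standard error 0.17, limma adjusted p = 0.50) was the largest of the 10 at the brightest probe set of each gene, with an interval of 0.931-fold to 1.61-fold. Without WT 3 it was past both thresholds, at 0.43 (unadjusted p = 0.0306 in limma), and without WT 1 it was 0.16. Without both arrays numbered 2 the Scd2 difference was 0.26. Exchanging their labels would make it smaller, since VAChT KD 2 (8.39) was above WT 2 (8.05). Scd4 read 7.83, 8.52 and 8.23 on the VAChT KD arrays, against 7.52, 7.95 and 8.32 on the WT arrays. The groups overlapped widely, and the difference was 0.26 (standard error 0.24, limma adjusted p = 0.635). It was 0.056 without WT 1 and 0.11 without both arrays numbered 2. VAChT KD 2 held the highest Scd4 value, and exchanging the labels of the arrays numbered 2 would turn the sign.

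Scd3, a desaturase of skin that was not among the 10 genes, differed by -0.04 (standard error 0.09), and by 0.0061 without both arrays numbered 2. Whether the probes of 1 desaturase also bind transcripts of another was not tested, and these genes are close in sequence.

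Srebf1 encodes SREBP-1, the transcription factor that drives the enzymes of the pathway in liver. It was the steadiest of the 10 genes and the one whose groups did not overlap. It read 8.17, 8.18 and 8.19 on the VAChT KD arrays, against 8.28, 8.23 and 8.22 on the WT arrays. All 3 VAChT KD values were below all 3 WT values, but by little, since the whole range was 0.10. This made 1 of 10 genes without overlap, or 10%, where 19.2% of all probe sets had none (12.9% lower and 6.25% higher in VAChT KD). The difference was -0.058 (standard error 0.071, limma adjusted p = 0.731, two-sided exact permutation p = 0.1, the smallest possible), and the interval was 0.856-fold to 1.08-fold. The methods' own test gave Srebf1 an unadjusted p of 0.0330, at a fold far below 1.3. With each array centred on its median the Srebf1 difference was 0.0085, so its sign followed the scaling. Without both arrays numbered 2 the Srebf1 difference was -0.066. The lack of overlap rests on the labels of these 2 arrays, as any such separation does, since exchanging them would end it.

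**Figure D2:**
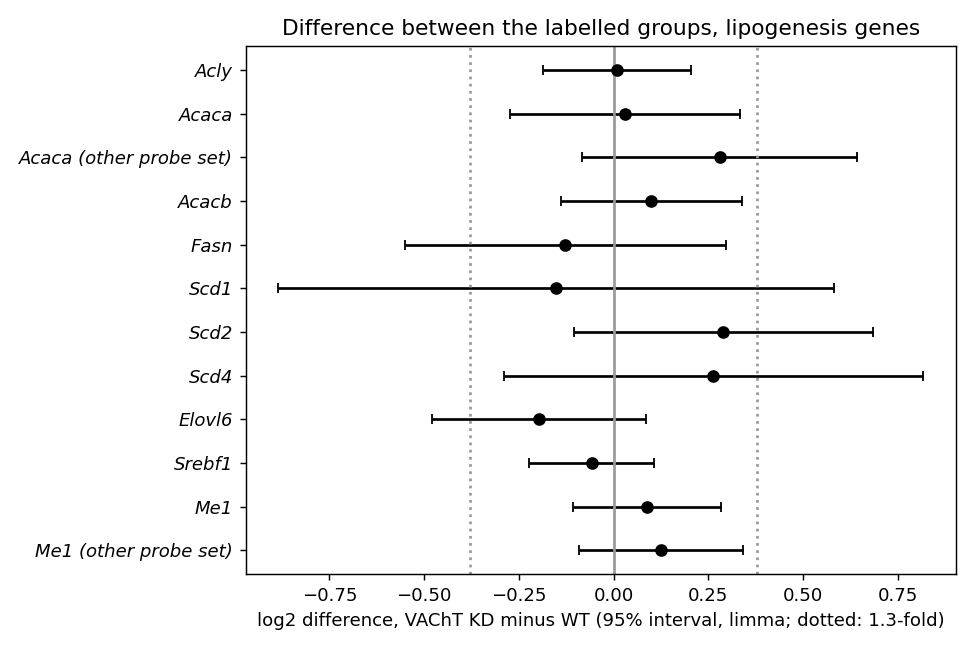
Log2 difference between VAChT KD and WT (horizontal axis) with its 95% interval from limma for the 12 probe sets (n = 3 arrays each), with dotted lines at 1.3-fold. All intervals include 0, and the points run from -0.20 for Elovl6 to 0.29 for Scd2.

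The 10 genes did not vary together over the arrays, and the array labelled WT 1 set them apart. Of the 10, 4 were highest on it (Scd1, Fasn, Elovl6 and Srebf1) and another 4 were lowest on it (Scd2, Scd4, Acacb and Me1). Acly and Acaca were lowest on WT 2 and highest on VAChT KD 3. Over the 6 arrays Pearson's r was 0.94 between Acacb and Scd4, 0.94 between Fasn and Scd1, 0.90 between Acly and Acaca, 0.88 between Scd1 and Elovl6 and 0.85 between Scd2 and Scd4, whereas it was -0.16 between Scd1 and Scd2 and -0.67 between Scd2 and Srebf1. These coefficients describe 6 points that share 1 normalization, and single arrays weigh heavily in them.

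The balance of the desaturases showed the same array, a comparison that was chosen after its values were seen. The log2 signal of Scd1 minus that of Scd2 was 0.54, 0.69 and 0.68 on the VAChT KD arrays, against 2.02, 0.53 and 0.69 on the WT arrays. Apart from WT 1, the 5 arrays of both labels were within 0.53 to 0.69. The mean difference between VAChT KD and WT was -0.44 (two-sided exact permutation p = 0.8, n = 3 arrays each), and without both arrays numbered 2 it was -0.74.

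Markers of brown adipocytes, cells rich in lipogenic enzymes, were high on WT 1 together with Scd1, Fasn and Elovl6. Ucp1, the uncoupling protein of brown fat, read 5.85, 5.81 and 5.79 on the VAChT KD arrays, against 7.41, 6.02 and 6.07 on the WT arrays. It was above the background limit on WT 1 and below it on the other 5 arrays. Otop1 read 6.91, 6.94 and 6.75 on the VAChT KD arrays, against 7.36, 7.01 and 6.99 on the WT arrays, and was also highest on WT 1. Elovl3, an elongase of brown fat and skin, was highest there as well, at 5.05, below background. Cidea was not, and read 8.86, 8.92 and 8.97 on the VAChT KD arrays, against 8.77, 8.70 and 8.73 on the WT arrays. The mean log2 signal of all 4 brown adipocyte markers, of which 2 were above background, was 6.49 to 6.62 on the VAChT KD arrays, against 6.64 to 7.15 on the WT arrays. White adipocyte markers were measured for 5 of 7 listed genes, and their mean was 6.5 to 6.79 on the VAChT KD arrays, against 6.63 to 6.78 on the WT arrays. Plin1, which coats lipid droplets, read 7.11, 7.10 and 6.99 on the VAChT KD arrays, against 7.52, 7.26 and 7.18 on the WT arrays. Its groups did not overlap, it was highest on WT 1, and its difference was -0.25 (unadjusted p = 0.0462 in limma, adjusted p = 0.421). The other white adipocyte markers were not highest on WT 1: Cidec, Retn and Adipoq were highest on VAChT KD 3, and Lep on WT 2. Adipoq and Lep, which define adipocytes, stayed below background on all 6 arrays, with highest values of 6.13 and 6.19. Of the marker lists of other tissues, those of fast skeletal muscle, hepatocytes and Schwann cells were also highest on WT 1. The mean over 4 fast skeletal muscle genes was 7.36 there and 7.03 to 7.16 on the other arrays, that over 4 hepatocyte genes 6.05 and 5.66 to 5.92, and that over 2 Schwann cell genes 7.54 and 7.28 to 7.42. Only 1 of the 4 hepatocyte genes was above background. The endothelium and macrophage lists were lowest on WT 1, at 10.19 and 8.40. The fibroblast, atrial myocyte and cardiomyocyte lists were not highest there. WT 1 also had the highest array median, 6.98. The part of these markers in the Scd1, Fasn and Elovl6 values was not tested. In tissue RNA of this kind, fewer cells of a type and less RNA per cell cannot be told apart.

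**Figure D3:**
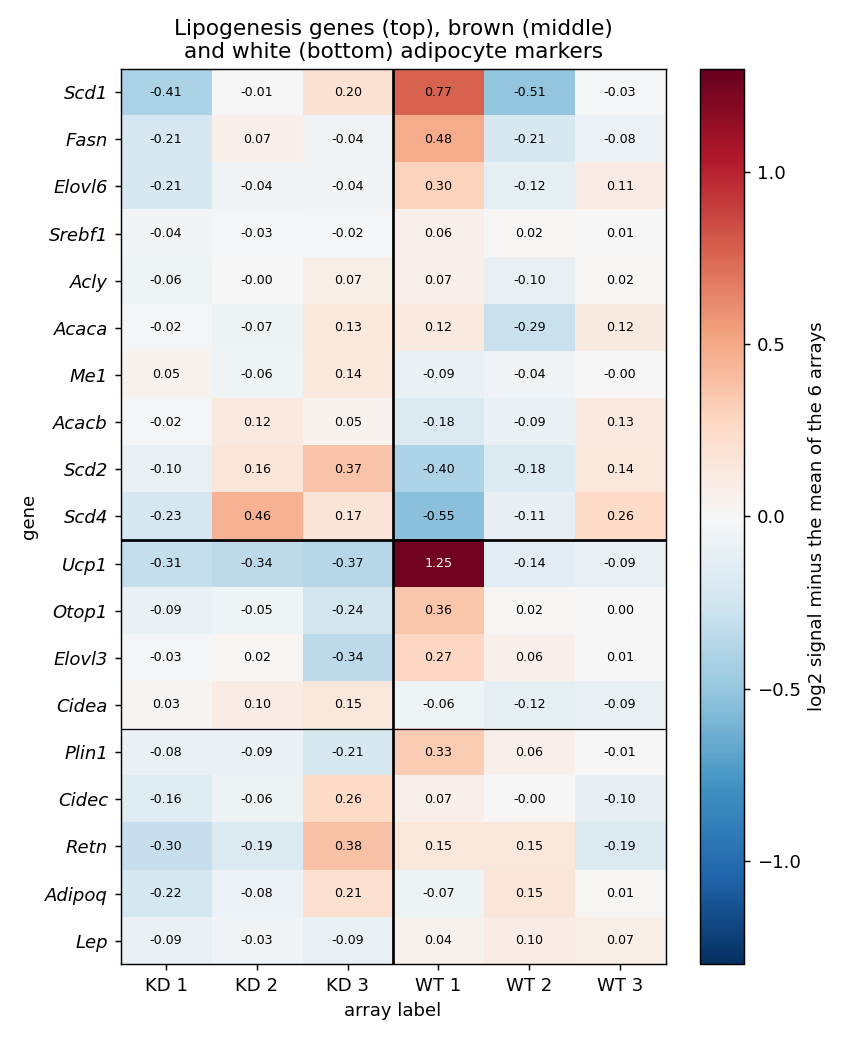
Deviation of each gene from its own mean over the 6 arrays (log2, colour and printed value), with the arrays in columns, VAChT KD left of WT, and the 10 lipogenesis genes above 4 brown and 5 white adipocyte markers. On WT 1, Scd1 is 0.77 and Ucp1 1.25 above the mean, and Scd4 is -0.55 from it.

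VAChT KD 1, the array with the low cardiomyocyte signal, held the lowest VAChT KD value for 8 of the 10 lipogenesis genes. Only Acaca and Me1 were lowest of their group on VAChT KD 2. The share of all probe sets with their lowest VAChT KD value there was not counted. Among VAChT KD arrays, the mean of the surrounding regulators was also lowest on VAChT KD 1 (8.91, against 8.94 and 9.06). So were those of AMPK control, acetyl-CoA and NADPH supply, further elongation and desaturation, and glycerolipid assembly. That of mitochondrial synthesis was lowest on VAChT KD 2. The part of the cardiomyocyte signal in the lipogenesis values was not tested. Without VAChT KD 1, the differences were 0.41 for Scd2, 0.44 for Scd4, -0.052 for Fasn and -0.14 for Elovl6, and 0 of the 12 probe sets were past both thresholds.

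**Figure D4:**
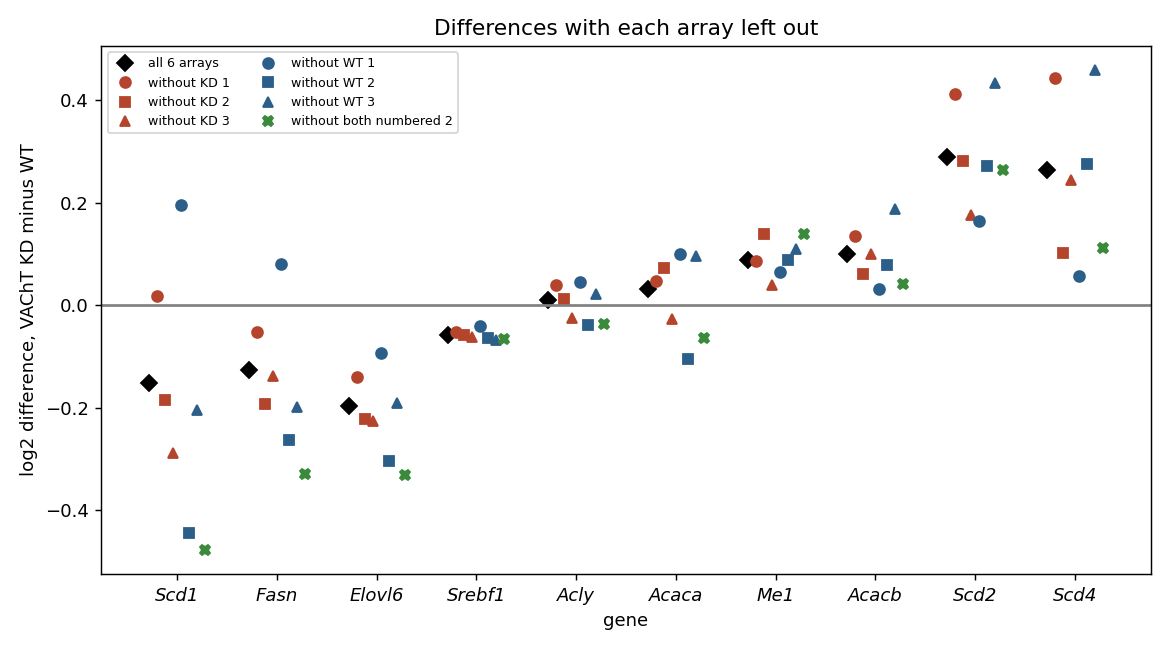
Log2 difference between VAChT KD and WT for each of the 10 genes (1 probe set a gene) with all 6 arrays and with arrays left out. Scd1 spans -0.48 without both arrays numbered 2 to 0.19 without WT 1.

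The genes around the pathway gave few differences. The 78 listed were regulators, genes of AMPK and malonyl-CoA control, suppliers of acetyl-CoA and NADPH, and further elongases and desaturases. They also included mitochondrial fatty acid synthesis genes and enzymes of acyl activation and glycerolipid assembly. Of the 78, 71 were measured. At an unadjusted p of 0.05 in limma, 2 were higher and 0 lower in VAChT KD, where 3.93% of all probe sets were higher and 7.81% lower, and 0 of the 71 also passed 1.3-fold or an adjusted p of 0.05. Their median log2 difference was 0.047, against -0.018 over all probe sets. The groups did not overlap for 4 of the 71 (Thrsp, Nr1h3, Me3 and Lpin2), where 19.2% of all probe sets had no overlap. In each of these 4 the separation rests on the labels of the arrays numbered 2, as any such separation does, since exchanging them would end it. When both arrays numbered 2 were left out, 1 of the 71 was higher and 0 were lower, where 4.46% of all probe sets were higher and 6.16% lower, and 9 of the 71 differences had the other sign.

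Both genes past the unadjusted p were among the 16 regulators measured. Thrsp, whose product Spot 14 is induced with lipogenesis in liver and fat, read 8.29, 8.29 and 8.71 on the VAChT KD arrays, against 8.13, 8.01 and 8.07 on the WT arrays. The groups did not overlap, and VAChT KD 3 was well above the rest. The difference was 0.36 (standard error 0.13, limma adjusted p = 0.409), and without VAChT KD 3 it was 0.22. Nr1h3, which encodes LXR alpha, an activator of Srebf1 transcription in liver, read 7.87, 7.95 and 8.03 on the VAChT KD arrays, against 7.66, 7.80 and 7.78 on the WT arrays. These groups did not overlap either, and the difference was 0.20 (standard error 0.08, limma adjusted p = 0.419). The next smallest p-values among the regulators were at Insig1, which retains SREBP in the endoplasmic reticulum (difference 0.23, standard error 0.11), and Ppargc1b, a coactivator of SREBP (0.13, standard error 0.10). Outside the rule for named genes, and picked for their roles after their values were seen, Mlxipl, which encodes ChREBP, differed by 0.03 (standard error 0.08), and Mid1ip1, a partner of acetyl-CoA carboxylase related to Thrsp, by -0.11 (standard error 0.12). Neither Thrsp nor Nr1h3 passed an unadjusted p of 0.05 in limma when both arrays numbered 2 were left out, at differences of 0.40 and 0.23. Thrsp also missed it by the methods' own test and without WT 2 or WT 3, and Nr1h3 with array weights and with any single array but VAChT KD 1 left out. The Ppargc1b difference was 0.20 without both arrays numbered 2.

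In the other lists no gene passed an unadjusted p of 0.05 with all 6 arrays. The 9 genes of AMPK and malonyl-CoA control, which include the kinase that inactivates acetyl-CoA carboxylase, ran from -0.11 to 0.16 with a median of 0.06. The extremes were both regulatory subunits of AMPK, Prkag3 at -0.11 and Prkab1 at 0.16, which was 0.059 without both arrays numbered 2. The 11 genes of acetyl-CoA and NADPH supply ran from -0.11 for Acss1, a mitochondrial acetyl-CoA synthetase, to 0.20 for Me2, a mitochondrial malic enzyme, which was 0.39 without both arrays numbered 2. The groups of the third malic enzyme, Me3, did not overlap, at a difference of 0.099 (standard error 0.071). Among them Slc25a1, the carrier that exports citrate to Acly, read 8.41, 8.52 and 8.61 on the VAChT KD arrays, against 8.56, 8.34 and 8.51 on the WT arrays, a difference of 0.040 that was -0.028 without both arrays numbered 2. It was among the 5 genes whose profile over the 6 arrays was most like that of Acly, with Pearson's r of 0.983 among 13146 genes compared. The 16 further elongation and desaturation genes, 12 of them above background, ran from -0.22 for Elovl3 to 0.24 for Hacd2, a dehydratase of fatty acid elongation, which was 0.38 without both arrays numbered 2. Its relative Hacd3, named after its values were seen, read 8.79, 8.58 and 8.99 on the VAChT KD arrays, against 8.20, 8.97 and 8.55 on the WT arrays. VAChT KD 2 was the lowest of its group and WT 2 the highest, and the difference was 0.21 (limma adjusted p = 0.65) with all 6 arrays and 0.51 without both arrays numbered 2 (limma adjusted p = 0.464). This was the 1 surrounding gene past an unadjusted p of 0.05 without them. Fads1, the delta-5 desaturase of polyunsaturated fatty acids, differed by 0.22 (standard error 0.12) and the elongase Elovl5 by 0.18 (standard error 0.12). The 5 mitochondrial synthesis genes ran from -0.058 for Mcat to 0.13 for Mecr, the reductase of that route, which was 0.27 without both arrays numbered 2, where Mcat was -0.095. The 14 genes of acyl activation and glycerolipid assembly ran from -0.16 for Dgat2, which makes triacylglycerol and was at -0.085 without both arrays numbered 2, to 0.18, and the groups of the phosphatidate phosphatase Lpin2 did not overlap, at 0.18 (standard error 0.10).

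The genes whose profiles over the 6 arrays were most like those of the central enzymes were named by Pearson's r among 13146 genes. For Acly they were Vwa7 (r = 0.993), Cdkl2 (0.989), St6galnac1 (0.987), Pfdn5 (0.984) and Slc25a1. For Acaca they were Dnmt3a (r = 0.984), Scara3 (0.976), Rnd1 (0.974), Gpatch2l (0.974) and Trim27 (0.974). For Fasn they were Xkr8 (r = 0.990), Apod (0.982), Was (0.975), Hdc (0.974) and Neurog2 (0.973). For Scd1 they were Snhg15 (r = 0.987), Lrwd1 (0.985), Arel1 (0.983), Ranbp3 (0.980) and Abhd16a (0.971). With 6 arrays and this many genes, values of this size describe likeness only.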

How the data were processed

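Total RNA from hearts was hybridised to Mouse Gene 1.0 ST arrays. Per the labels and methods, the authors summarised the probes with RMA in Partek, and the deposited values are log2 signals for 35556 probe sets. They were tested as deposited. Of these probe sets, 21789 were listed under 1 gene symbol in the platform annotation, 1621 under several and 12146 were unlisted. Groups came from the labels, and each array is a pool of 2 RNA samples. VAChT KD was compared with WT with limma 3.58.1 (R 4.3.3, lmFit and eBayes) over all probe sets, with Benjamini-Hochberg adjustment and no filter, and calls used the methods' thresholds. The probe set with the highest mean stands for a gene. The genes named were all 10, up to 4 of each surrounding list with the smallest p, and the 5 most similar profiles for Acly, Acaca, Fasn and Scd1. Exact permutation tests were two-sided. The test was checked on simulated data. The genes and lists were chosen with earlier results of these data known. Equal replicate numbers did not pair the samples. The number of arrays limits the precision.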

Additional observations from a re-analysis of the deposited data

How the results depend on the processing

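No lipogenesis probe set was past both thresholds under further quantile normalization, median centring, removal of dim probe sets, trended and robust moderation, array weights, the methods' test or without both arrays numbered 2. Leaving out 1 array at a time gave 0 to 1 of them, the dimmer Acaca probe set without VAChT KD 2 and Scd2 without WT 3. The median difference of the 10 genes then ran from -0.052 to 0.061. Small differences changed sign: Acly was -0.026 after quantile normalization, Srebf1 0.0085 after median centring and Scd1 0.016 with array weights. Without both arrays numbered 2, Acly was -0.036 and Acaca -0.063. With single arrays left out, Acly ran from -0.039 to 0.044, Acaca from -0.10 to 0.10, Fasn from -0.26 to 0.080 and Scd1 from -0.45 to 0.19. The replicate number as a block (correlations of same-numbered deviations 0.057, -0.12 and 0.13) left 0 lipogenesis probe sets called, with 1489 over the whole array. In that fit Scd2 (unadjusted p = 0.0144 in limma) and the dimmer Acaca probe set (0.0155) passed the unadjusted p but were under 1.3-fold.

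Over the whole array, 1348 probe sets passed both thresholds. The count was 578 without dim probe sets, 2800 without both arrays numbered 2, 587 by the methods' test, 1 at an adjusted p of 0.05 and 4174 at an unadjusted p alone, and 841 to 2173 with 1 array left out. Of the calls, 754 were higher and 594 lower in VAChT KD, against 1125 and 268 after median centring. Without both arrays numbered 2, an alternative added after seeing the data for the surrounding genes, 1 of these passed an unadjusted p of 0.05, against 2 with all arrays. The cause was not tested. With 3 arrays a group, the intervals of 5 of the 10 genes, at the brightest probe set of each, reached past 1.3-fold.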
